A study of Mus musculus with 12 samples.

Results

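In the postnatal mouse cerebellum, 10 genes that mark astrocytes and Bergmann glia were followed: Gfap, S100b, Aqp4, Hopx, Aldoc, Slc1a3, Fabp7, Glul, Apoe and Ntsr2. They were chosen as a list of known markers and every probe set annotated to them was taken, which gave 13 of the 12488 probe sets of the array. These belong to 9 of the 10 genes, since no probe set is annotated to Slc1a3, which was not analysed here. A probe set is a group of short DNA probes against 1 transcript, and its signal is the intensity that MAS5 combines from them. Of these, 12 passed the filter on mean signal and 1 of 2 for Apoe, 161321_i_at, did not, with signals of 1.7 to 15 on the 12 arrays.

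The cerebella came from Ts1Cje mice, a Down syndrome model with an additional copy of a distal segment of chromosome 16, and from euploid mice, on postnatal days 0, 15 and 30 (P0, P15, P30). No allele, treatment or other difference between the groups is given, and no member lies on chromosome 16. Each of the 6 combinations was 1 pool of RNA from whole cerebella, of 3 animals each, or of 2 for euploid P30, and each pool was hybridised to 2 Affymetrix arrays. The 2 arrays of a pool share their RNA, so the pool is the replicate and within a stage 1 pool stands against 1 pool. In such bulk RNA, fewer cells of a type and less RNA per cell cannot be told apart.

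Astrocytes are the star-shaped support cells of the brain, and Bergmann glia are their counterpart in the cerebellar cortex. Bergmann glia descend from radial glia, the stem and scaffold cells of the embryonic brain, and their fibres guide newborn granule neurons inward across the Purkinje cell layer. As these cells mature they take up glutamate and potassium, and carry water and lipids. Marker genes accordingly divide into early ones, such as Fabp7, ones shared by radial and mature glia, such as Hopx and Slc1a3, and late ones, such as S100b, Gfap, Aqp4, Aldoc, Glul, Apoe and Ntsr2.

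Defining markers of the cerebellum were present. The summed signal of 6 Purkinje cell genes was 5942.7 to 8291.6 on the 8 arrays of P15 and P30, against 615.5 to 887 on the 4 arrays of P0, and that of 7 granule cell genes 8156.4 to 11422.2 against 3026.3 to 3387. The median signal per array was 30.4 to 36.2. The ratio of 3' to 5' actin signal, a sign of RNA integrity, was 1.55 and 1.67 on the Ts1Cje P30 arrays and 1.13 to 1.43 on the others. The same ratio for Gapdh did not set this pool apart, with 0.96 and 0.88 against 0.84 to 1.07 on the others. Xist, which coats the silenced X of female cells, had 105.6 and 77.6 on the Ts1Cje P15 arrays and 1.4 to 6.7 on the other 10, so that this pool differed from the rest in Xist. Of genes on the Y chromosome, the dim Kdm5d had 0.6 and 1.9 there, against 3.8 to 10.8 on the others. Eif2s3y had 45.3 and 27.5 against 38.7 to 74.3, and Uty 11.5 and 16.1 against 7.6 to 23.4.

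Between P0 and P15 most of the late markers rose, Glul being the one that did not pass the test. In all, 9 member probe sets of 7 genes (Gfap, S100b, Aqp4, Hopx, Aldoc, Apoe and Ntsr2) passed the test upward, against 13.6% of all tested probe sets, and 0 passed it downward, against 14.4% of all. The median log2 difference over the 12 probe sets was 2.12, where that over all 7453 tested probe sets was -0.03. All differences are log2(signal + 4.6), tested with limma over the 6 pools with both genotypes, with Benjamini-Hochberg adjustment over the 7453 and a threshold of 0.05. The 4.6 understates the change of dim probe sets. Between P15 and P30, 2 rose (S100b and Ntsr2), against 1.61% of all, and 1 fell (Fabp7), against 3.13% of all, with a median of -0.10 over the members and 0.06 over all probe sets. Without the euploid P15 pool 0 rose and 3 fell in this later step, without either P0 pool 4 rose, and without the Ts1Cje P30 pool 1 rose. Over the whole span from P0 to P30, 10 probe sets of 8 genes rose, against 19.4% of all, and 1 fell, against 19.6% of all, with medians of 1.98 and 0.04.

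Fabp7 (chr10:57784923-57788450 in GRCm38.p6) encodes the brain lipid-binding protein, a carrier of fatty acids in radial glia and young Bergmann glia, and was the only member that fell. Its signals were 3249 and 2577.8 on the euploid P0 arrays, 2138.4 and 2295 at P15 and 601.3 and 645.1 at P30. In Ts1Cje they were 3358.4 and 3303.9 at P0, 1863.8 and 2026.5 at P15 and 260.9 and 317.5 at P30. In both genotypes the P15 arrays lay below the P0 arrays, and the P30 arrays far below both. The difference from P15 to P30 was -2.28 ± 0.26 (SE; limma adjusted p = 0.0038), and that from P0 to P30 -2.86 ± 0.26 (limma adjusted p = 7.88e-05). From P0 to P15 it was -0.58 ± 0.26 (limma adjusted p = 0.133), which passed the test without the euploid P0 pool (-1.004, limma adjusted p = 0.0323) and, with an unchanged estimate, without the euploid P30 pool (limma adjusted p = 0.00952) or the Ts1Cje P30 pool (limma adjusted p = 0.0081).

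S100b (chr10:76253836-76261319) encodes a calcium-binding protein of mature glia and had the largest rise of the members. Its signals in euploid pools were 26.1 and 21.2 at P0, 408.6 and 373.5 at P15 and 727.6 and 945 at P30. The Ts1Cje pools had 20.1 and 22.7, 418.2 and 407.9, and 534.8 and 731.3. P0 arrays lay far below those of both later stages, and every P30 array lay above every P15 array. The rise was 3.91 ± 0.17 from P0 to P15 (limma adjusted p = 2.3e-06), which is 15-fold on the scale with the 4.6 added, and 0.84 ± 0.17 from P15 to P30 (limma adjusted p = 0.0332). The later step did not pass without the euploid P15 pool (0.67, limma adjusted p = 0.105), the euploid P30 pool (0.64, limma adjusted p = 0.3), the Ts1Cje P30 pool (1.03, limma adjusted p = 0.0549), the first euploid P0 array (limma adjusted p = 0.0546) or the second Ts1Cje P30 array (limma adjusted p = 0.062), nor without limma's trend over mean signal (limma adjusted p = 0.0635).

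Ntsr2, the low-affinity neurotensin receptor of astrocytes, was the other member that rose in both steps. Euploid signals were 51.7 and 60.6 at P0, 168.2 and 161.6 at P15 and 414.1 and 383.6 at P30, and those of Ts1Cje 59.9 and 54.6, 191.9 and 176.8, and 285.3 and 279.4. The stages did not overlap. The differences were 1.55 ± 0.19 (limma adjusted p = 0.000718) and 0.93 ± 0.19 (limma adjusted p = 0.035), and the second did not pass without the euploid P15 pool (0.73, limma adjusted p = 0.103) or the euploid P30 pool (0.64, limma adjusted p = 0.314). It also did not pass with no filter on mean signal (limma adjusted p = 0.0568) or without limma's trend over mean signal (limma adjusted p = 0.0655).

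The promoters of Fabp7 and S100b are printed because these genes moved in opposite directions by the largest amounts. Those of Aldoc and Glul are printed because Aldoc and 1 of 2 Glul probe sets differed by 1.5-fold or more between genotypes at P0. Each is the 250 bases before a RefSeq transcription start in GRCm38.p6, 5' to 3' on the strand of the gene, which is the plus strand for all 4. Capitals mark 2 of the 4 motifs searched on both strands, the half-site of NFI (TTGGCA) and the site of the Notch effector RBPJ (GTGGGAA).
Fabp7, chr10:57784673-57784922: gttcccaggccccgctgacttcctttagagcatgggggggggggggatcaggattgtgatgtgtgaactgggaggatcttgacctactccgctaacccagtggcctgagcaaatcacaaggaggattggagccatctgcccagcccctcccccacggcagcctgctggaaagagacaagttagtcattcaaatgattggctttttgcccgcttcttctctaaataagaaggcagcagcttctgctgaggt
S100b, chr10:76253586-76253835: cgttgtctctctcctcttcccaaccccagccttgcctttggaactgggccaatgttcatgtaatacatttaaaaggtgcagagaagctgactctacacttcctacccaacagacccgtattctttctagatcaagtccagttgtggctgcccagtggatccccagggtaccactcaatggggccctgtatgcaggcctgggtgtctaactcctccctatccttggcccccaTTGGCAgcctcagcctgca
Aldoc, chr11:78322823-78323072: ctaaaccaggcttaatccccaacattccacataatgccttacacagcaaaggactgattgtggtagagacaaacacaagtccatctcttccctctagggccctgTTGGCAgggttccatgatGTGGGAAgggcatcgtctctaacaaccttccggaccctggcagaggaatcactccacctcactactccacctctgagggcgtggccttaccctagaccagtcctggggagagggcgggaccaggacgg
Glul, chr1:153899679-153899928: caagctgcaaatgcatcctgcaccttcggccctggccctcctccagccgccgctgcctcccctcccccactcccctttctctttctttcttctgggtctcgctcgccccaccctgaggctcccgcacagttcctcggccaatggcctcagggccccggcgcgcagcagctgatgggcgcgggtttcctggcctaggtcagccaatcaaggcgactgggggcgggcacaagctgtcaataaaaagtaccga
The NFI half-site lay 19 bases before the start of S100b and 146 bases before that of Aldoc, and the RBPJ site 128 bases before that of Aldoc. Of 32851 mouse promoter windows of this length, 12.3% hold the NFI half-site and 5.42% the RBPJ site. The others searched were a SOX site (ACAATG, in 10.7%) and a half-site of the glucocorticoid receptor (AGAACA, in 16.1%), and neither is in these 4 windows. Aldoc has a second RefSeq start, whose window (chr11:78323948-78324197, not printed) holds none of the 4 motifs. A match describes letters, not a bound site.

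**Figure D1:**
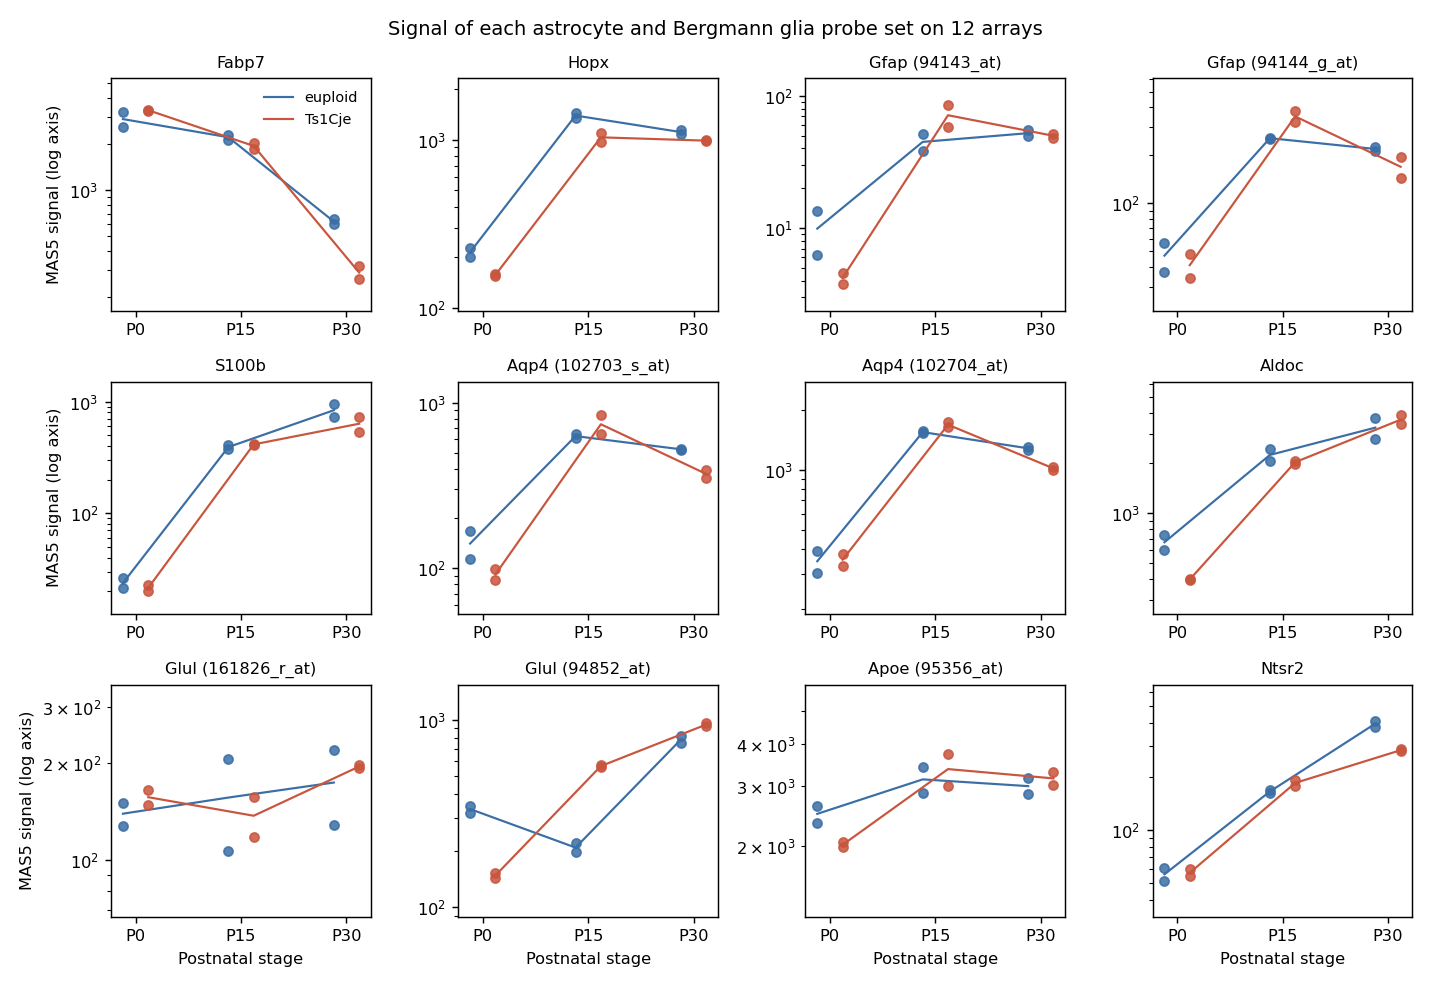
MAS5 signal (log axis) of the 12 tested member probe sets at P0, P15 and P30, with 1 point per array, blue for euploid and red for Ts1Cje, and lines through the mean of both arrays of a pool. Fabp7 falls to between 260.9 and 645.1 at P30, while S100b climbs from 20.1 to 26.1 at P0 to between 534.8 and 945 at P30.

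Hopx (chr5:77086986-77115123), a small homeodomain protein present in radial glia and in mature Bergmann glia, rose early and then held its level. Its signals were 228.5 and 201.8 at P0, 1339.4 and 1445.4 at P15 and 1143 and 1077.9 at P30 in euploid mice, and 160.5 and 154.8, 971.1 and 1096.1, and 985.7 and 990 in Ts1Cje mice. The rise to P15 was 2.67 ± 0.14 (limma adjusted p = 8.49e-06), and the difference from P15 to P30 was -0.19 ± 0.14 (limma adjusted p = 0.449). All its P15 and P30 arrays lay above all its P0 arrays, where those of Fabp7 lay below.

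Gfap, the intermediate filament protein of astrocytes, and Aqp4, the water channel of their endfeet, also rose to P15. The probe set 94144_g_at of Gfap had 56.9 and 37.3, 254.1 and 258.7, and 213.4 and 225.3 in euploid pools at P0, P15 and P30, and 34.1 and 48, 322.6 and 379.4, and 194.9 and 144.6 in Ts1Cje pools. It rose by 2.67 ± 0.21 to P15 (limma adjusted p = 7.49e-05), and the dimmer 94143_at by 2.44 ± 0.30 (limma adjusted p = 0.00076). The Aqp4 probe set 102704_at had 302.3 to 390.6 at P0, 1526.6 to 1729 at P15 and 998.7 to 1303 at P30, a rise of 2.19 ± 0.15 (limma adjusted p = 3.85e-05) that was 2.55 ± 0.21 in 102703_s_at. All 4 P15 arrays lay above all 4 P30 arrays for both Aqp4 probe sets and for Gfap 94144_g_at. The later differences were -0.50 ± 0.15 for it, -0.62 ± 0.21 for 102703_s_at and -0.63 ± 0.21 for Gfap 94144_g_at, with limma adjusted p of 0.107, 0.129 and 0.132. The last 2 of these passed without the euploid P15 pool (-0.999, limma adjusted p = 0.0133, and -0.99, limma adjusted p = 0.0259).

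The metabolic members differed among themselves. Aldoc, the brain form of the glycolytic enzyme aldolase, which Purkinje cells also make in stripes, had 601.3 and 734.3, 2048.1 and 2437.5, and 3746 and 2806.8 in euploid pools, and 396.3 and 400, 2066.3 and 1990.1, and 3883.2 and 3434.2 in Ts1Cje pools. Its P15 arrays lay above its P0 arrays and below its P30 arrays. It rose by 2.04 ± 0.20 to P15 (limma adjusted p = 0.000202) and the difference from P15 to P30, 0.69 ± 0.20, did not pass (limma adjusted p = 0.0926). That step passed without any 1 of the euploid P0, euploid P30 or Ts1Cje P0 pools (limma adjusted p = 0.0248, 0.0102 and 0.0253) or the second euploid P30 array (limma adjusted p = 0.0387). Apoe, the main lipid carrier made by astrocytes, was bright from birth, with 1988 to 2634 on the P0 arrays, 2867.7 to 3731.6 at P15 and 2844.9 to 3297.6 at P30. Its rise of 0.53 ± 0.13 to P15 (limma adjusted p = 0.0193) was the smallest that passed. That call was lost without the Ts1Cje P0 pool (0.34, limma adjusted p = 0.184), the Ts1Cje P15 pool (0.43, limma adjusted p = 0.0785), the first euploid P0 array (0.49, limma adjusted p = 0.0501) or the second euploid P15 array (0.47, limma adjusted p = 0.0503). From P0 to P30 Apoe had 0.46 ± 0.13 (limma adjusted p = 0.0262), which was lost without the Ts1Cje P0 pool (0.26, limma adjusted p = 0.264), the Ts1Cje P30 pool (0.37, limma adjusted p = 0.222), the first euploid P0 array (0.42, limma adjusted p = 0.0706) or the second euploid P30 array (0.42, limma adjusted p = 0.0575).

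Glul (chr1:153899929-153909723) encodes glutamine synthetase, with which astrocytes turn glutamate taken up from synapses into glutamine. Probe set 94852_at read 347.9 and 319.3 at P0, 219.9 and 196.1 at P15 and 817.8 and 748.8 at P30 in euploid pools. In Ts1Cje pools it read 142.5 and 153.1, 556.9 and 573, and 922.5 and 958.5. The euploid arrays were lowest at P15 and the Ts1Cje arrays lowest at P0, and both genotypes were highest at P30. The difference from P0 to P30 was 1.93 ± 0.47 (limma adjusted p = 0.0113), which ended without the Ts1Cje P0 pool (0.93, limma adjusted p = 0.0647). From P0 to P15 it was 0.62 ± 0.47 (limma adjusted p = 0.367), and without the Ts1Cje P0 pool or the Ts1Cje P15 pool it was -0.38 and -0.32, while without the euploid P0 or P15 pool it passed, at 1.61 (limma adjusted p = 0.0102) and 1.55 (limma adjusted p = 0.00464). From P15 to P30 it was 1.31 ± 0.47 (limma adjusted p = 0.152), which passed without the euploid P0, euploid P30, Ts1Cje P0 or Ts1Cje P15 pool (limma adjusted p = 0.0203, 0.0394, 0.0209 and 0.00272). The other Glul probe set, 161826_r_at, had 106.6 to 219.9 over all 12 arrays and 0.29 ± 0.16 from P0 to P30 (limma adjusted p = 0.19), so the 2 probe sets disagree.

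**Figure D2:**
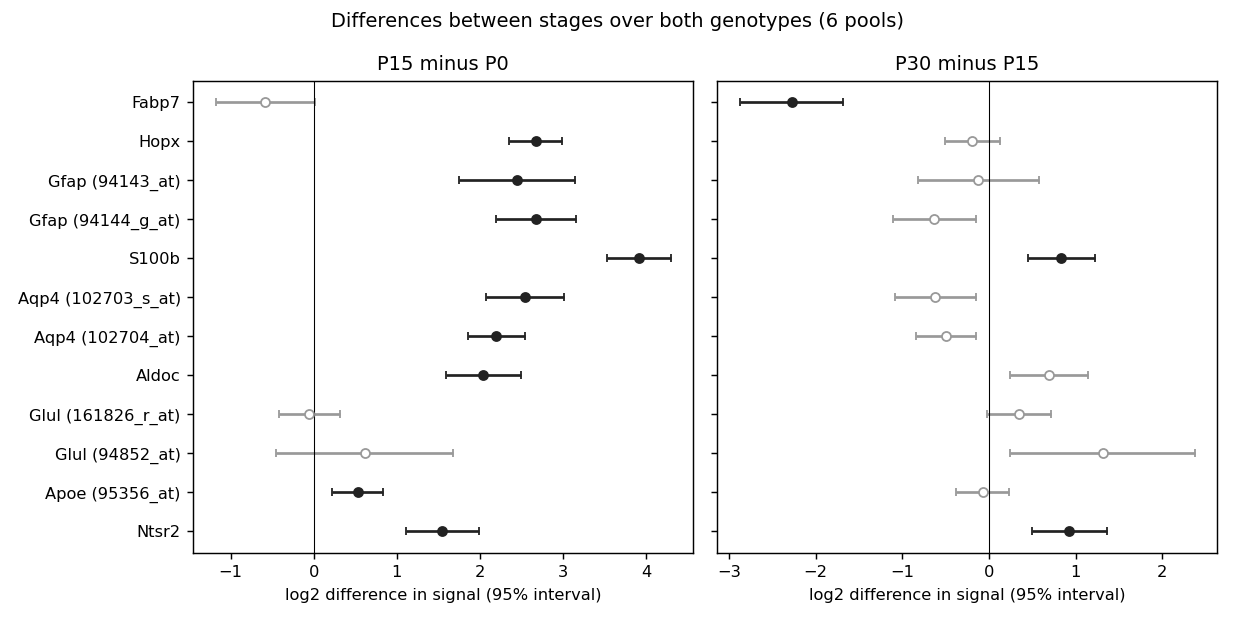
Log2 difference in signal with its 95% interval for each member probe set, from P0 to P15 (left) and from P15 to P30 (right), over both genotypes and 6 pools. Filled points passed limma's test at an adjusted p of 0.05. On the left 9 of 12 passed, all to the right of 0, and on the right S100b and Ntsr2 passed above 0 and Fabp7 below it.

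Other genes of the same cells were given by lists, written with earlier results of these data known. Of 15 measured radial glia and progenitor genes, 10 fell and 1 rose from P0 to P30, with a median of -1.15, the side on which Fabp7 lay. Hes5, a target of Notch signalling, had -2.53 and the matrix protein Tnc -2.06, while Prom1, a membrane protein of stem cells, had 1.01. Of 10 Bergmann glia genes, 6 rose and 1 fell (median 1.01), with 4.82 for Septin4, a filament-forming GTPase, 3.76 for the D-amino acid oxidase Dao, and -0.70 for the endothelin receptor Ednrb. Of 29 astrocyte genes, 21 rose and 1 fell (median 1.35), with 4.37 for the receptor Gpr37l1, 2.99 for Lcat, which esterifies cholesterol on lipoproteins, and -0.60 for Mfge8, a secreted bridge for phagocytosis. These calls are limma's at an adjusted p of 0.05.

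Genes that work with Apoe and Glul moved in both directions. Of 8 lipid carriage genes 5 rose and 3 fell, among them Lcat, the lipoprotein clusterin Clu (1.35), both also in the astrocyte list, the lipoprotein receptor Scarb1 (-1.35) and the cholesterol exporter Abca1 (-1.26). Of 3 glutamate handling genes Got2 rose (0.56) and Glud1 fell (-0.64), both mitochondrial enzymes of glutamate metabolism. None of the 5 measured genes of reactive astrocytes, the state that follows injury, passed the test, and their median was 0.14. The summed signal of 7 oligodendrocyte genes, markers of a glial cell outside the list, was 148.6 to 198.3 on P0 arrays, 5958 to 6550.5 at P15 and 4983 to 5487.8 at P30. All 7 genes were higher, none at a signal of 0, with Mobp (7.96) and Mog (4.86) first. At P0 the mean signals in euploid and Ts1Cje were 1.55 and 1.15 for Mobp, and 0.75 and 1.15 for Mog. These lie below the added 4.6, so the size of both differences depends on it. For 9 microglia genes the summed signal was 581 to 820.6 at P0 and 864.3 to 1003.6 at P30, and 1 of 9 rose, the protease Ctss (1.26). The part of these cells in the members' changes was not tested.

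**Figure D3:**
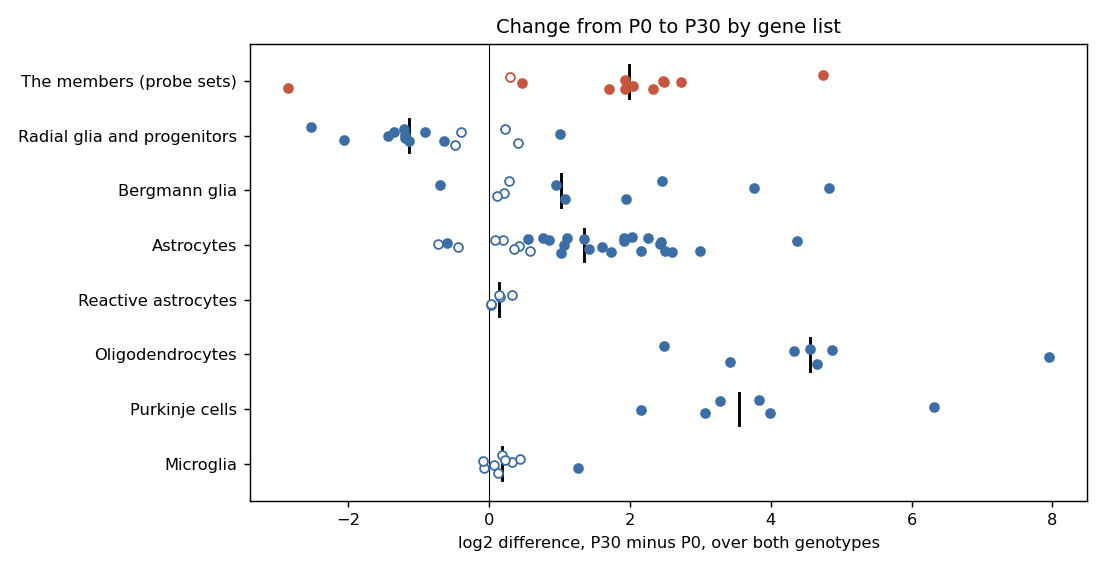
Log2 difference from P0 to P30 over both genotypes for the 12 member probe sets (red) and for the genes of 7 lists (blue), with the black bar at the median and filled points passing limma's test. Radial glia and progenitor genes centre on -1.15 and astrocyte genes on 1.35, and Fabp7 at -2.86 lies apart from the other members.

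By Pearson correlation over the 6 pool means, the genes most like S100b among 1885 whose range over pools was at least 1 were Laptm4b, Lcat, Nupr1, Lysmd2 and Nos1, all with r of 0.998 or 0.999. Those most like Fabp7 were Slc22a23, Plgrkt, Spef1, Nusap1 and Ice1, with r of 0.987 to 0.991. The points share their 3 stages, and only 6 enter each value. Lcat also stood among the astrocyte genes with the largest rises.

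Over the 3 stages together no member differed between genotypes by the test. Limma called 0 of the 12 probe sets and 0% of all 7453, and at an unadjusted p under 0.05 it had 1 of 12, against 2.91% of all. Of the 12 estimates 10 were below 0 in Ts1Cje, with a median of -0.08 against -0.001 over all probe sets. That 1 was Hopx, at -0.34 ± 0.11 (limma adjusted p = 1). Its Ts1Cje arrays lay below its euploid arrays at each stage, with differences of -0.44, -0.43 and -0.17, and an exact permutation of pools within stage gives a two-sided p of 0.25, the smallest it can give. The 95% interval of Hopx was -0.61 to -0.08, and those of the other 11 probe sets all included 0.

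At P0 the members with a difference of 1.5-fold or more and no overlap of arrays were lower in Ts1Cje, which was so for 3 of 12 probe sets, against 3.86% of all, while 0 were higher, against 3.54% of all. They were Glul 94852_at (-1.15), Aldoc (-0.73) and the dim Gfap 94143_at (-0.68), whose 4 signals were 13.5 and 6.3 in euploid and 4.6 and 3.8 in Ts1Cje. This Gfap difference was -0.21 with a pseudocount of 32 in place of 4.6, -0.31 without the first euploid P0 array and -1.04 without the second. The count of members was 2 with that pseudocount, with a mean signal of at least 50 or without the first euploid P0 array, and 3 or 4 otherwise. The brighter Gfap probe set had -0.17 and Glul 161826_r_at 0.17, both with overlapping arrays. Aqp4 102703_s_at had -0.57 and 102704_at 0.03, so this gene's probe sets differed too. The median over the 12 was -0.23, against 0.02 over all probe sets. At any fold 7 of 12 did not overlap (44.3% of all), 6 of them lower (21.9% of all). Of the 29 astrocyte genes 20 were negative (median -0.11), and of 15 radial glia and progenitor genes 13 were positive (median 0.22). The 10 Bergmann glia genes were split, with 5 positive and 5 negative (median -0.006). Of 9 microglia genes 8 were negative (median -0.34), as were all 3 blood genes (median -0.68). Of 7 granule cell genes 6 were positive (median 0.47), and of 6 Purkinje cell genes 5 (median 0.16). Of 8 genes of meninges and choroid plexus 6 were positive (median 0.46), among them Col1a1 (0.88) and Dcn (0.74) of the meninges. The choroid plexus genes Ttr (-1.33) and Folr1 (-1.10) lay on the other side. Another choroid plexus gene, Kl, was positive (0.23), with mean signals of only 1.45 in euploid and 2.55 in Ts1Cje. The part of these cells in the members' values was not tested.

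At P15 the direction of Glul was the other way round. It was 2.68-fold higher in Ts1Cje (1.42), and Gfap 94143_at 1.53-fold higher (0.61), which made 2 of 12 probe sets higher, against 3.21% of all, and 0 lower, against 1.95%. The brighter Gfap probe set had 0.44 with no overlap. The Gfap difference fell under 1.5-fold without the second euploid P15 array (0.41) or the first Ts1Cje P15 array (0.36). At any fold 7 of 12 did not overlap (39.5% of all), 2 of them lower (18.5% of all). The second Glul probe set had -0.12 with overlapping arrays. Glul's euploid P15 arrays, at 219.9 and 196.1, were its lowest of the euploid pools. Of the 29 astrocyte genes 20 were positive (median 0.12), and of the 10 Bergmann glia genes 7 were negative (median -0.09). In the same Ts1Cje pool 8 of 9 microglia genes were positive (median 0.42) and all 7 granule cell genes (median -0.50) and all 3 blood genes (median -1.40) negative. The summed Purkinje cell signal was 5942.7 and 6435.3 on its arrays, against 7862 and 7906 in euploid, and it is the pool with the Xist signals of 105.6 and 77.6. The part of these differences in the members' values was not tested.

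At P30 Fabp7 was 2.15-fold lower in Ts1Cje (-1.10), the 1 of 12 probe sets past 1.5-fold without overlap, against 2.13% of all, with 0 higher, against 2.28%. Several late markers were also lower without overlap but under 1.5-fold, namely Ntsr2 (-0.49), Aqp4 102703_s_at (-0.49) and 102704_at (-0.33) and Gfap 94144_g_at (-0.38). Counted at any fold, 7 of 12 probe sets did not overlap, 6 of them lower, where 39.4% of all probe sets did not overlap and 19.8% were lower. S100b (-0.40) overlapped, and was past 1.5-fold without overlap when the first euploid P30 array (-0.59) or the second Ts1Cje P30 array (-0.63) was left out. Gfap 94144_g_at was past it without the first Ts1Cje P30 array (-0.59). Glul 94852_at, also a late marker, was higher without overlap (0.26). Glul 161826_r_at (0.21), Aldoc (0.17) and Apoe (0.08) were higher with overlap. Of the 10 Bergmann glia genes 9 were positive (median 0.22), and of the 29 astrocyte genes 15 (median 0.01). In this stage 9 of 10 glucocorticoid-responsive genes were higher in Ts1Cje, with a median of 0.65. Their summed signal was 7556.3 to 8350.2 on its arrays, against 4260.1 to 4717.9 on the euploid arrays. Much of this sum came from Mt1 (mean 3060.55 against 1736.75) and Mt2 (3225.1 against 1654.65), which are also in the astrocyte list. The highest actin ratios, but not the highest Gapdh ratios, fell in the same pool. The part of these differences in the values of the members was not tested.

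**Figure D4:**
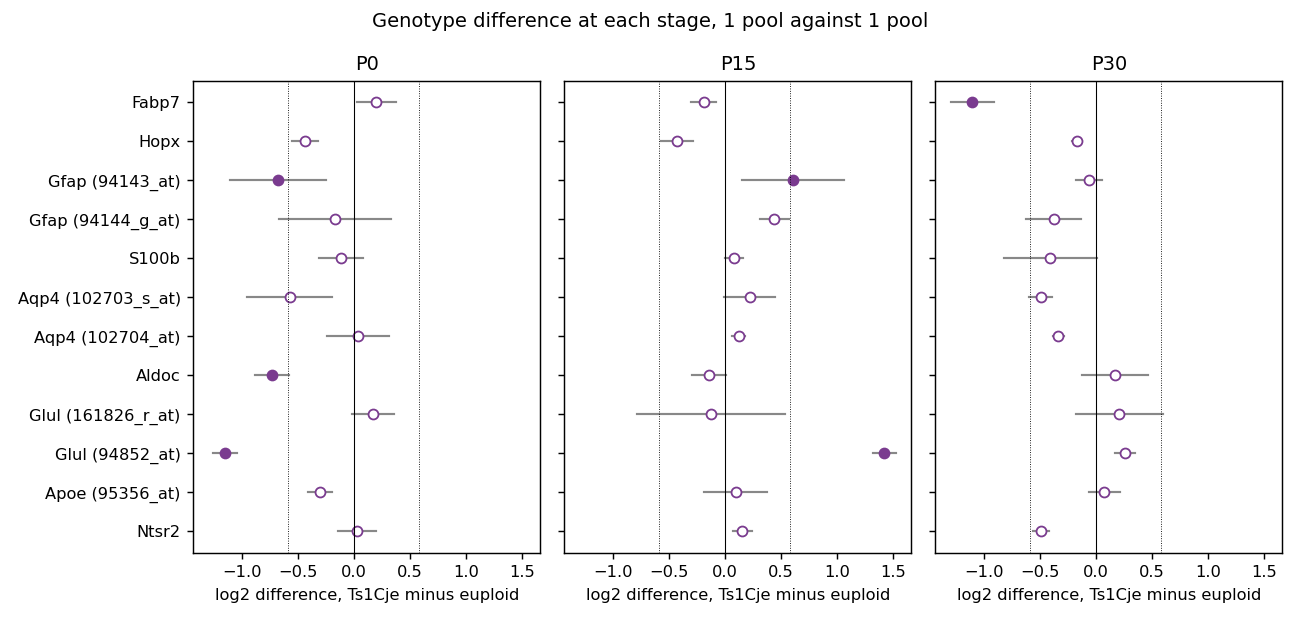
Log2 difference of Ts1Cje minus euploid for each member probe set at P0, P15 and P30, from 1 pool of each genotype. Grey lines run between the smallest and the largest difference between single arrays, dotted lines mark 1.5-fold, and filled points are past 1.5-fold with no overlap. Glul 94852_at goes from -1.15 at P0 to 1.42 at P15, and Fabp7 reaches -1.10 at P30.

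Whether the genotype difference moved with age was asked with a term for genotype by postnatal day. Limma called 0 of 12 probe sets and 0% of all, and at an unadjusted p under 0.05 it had 2 of 12, against 2.59% of all. At P0, P15 and P30 the difference for Fabp7 was 0.20, -0.19 and -1.10, a change of -1.30 ± 0.34 over the span (limma adjusted p = 1). For Aldoc it was -0.73, -0.14 and 0.17, a change of 0.90 ± 0.32 (limma adjusted p = 1). Taken by genotype, the Fabp7 difference from P0 to P30 was -2.21 in the euploid pools and -3.51 in the Ts1Cje pools. The change for Glul 94852_at, which did not move steadily with age, was 1.41 ± 0.75 (limma adjusted p = 1).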

How the data were processed

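Total RNA of cerebella was pooled and hybridised to Affymetrix arrays, per the labels' protocols. The authors deposited 1 linear intensity per probe set and array, made with MAS5 according to the submitters' processing notes, with no version or settings given in the sources used here. Every array has a common trimmed mean in the deposited values, so no further scaling was applied. Probe sets were matched to genes by the platform annotation (10855 with 1 symbol, 396 with several, 1237 with none).

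Signals were transformed to log2(signal + 4.6), the 20th percentile of all values. Left out were 66 control probe sets and those dimmer on average than 20.1, the 40th percentile, and 7453 remained. Arrays of a pool were averaged. In R 4.3.3, limma 3.58.1 (lmFit, eBayes with a trend) fitted models with genotype and stage (2 residual degrees of freedom, prior 6.39), or with genotype by postnatal day added (1 and 9.51), and Benjamini-Hochberg adjustment. The code was tested on simulated data. Tests are two-sided. Each genotype and stage had 1 pool, so the p-values do not measure a spread between replicate pools. The spread they use is what the model leaves over, namely uneven genotype differences over the stages, which may be technical in part. Limma moderates it with the spread of the other probe sets. The number of pools limits the precision. Within a stage there is no test.

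The members, lists, models and naming rule were chosen with earlier results of these data known. The rule names all members, from each list up to 2 of the largest called rises and 2 of the largest called falls from P0 to P30, and the 5 genes most like the members with the largest rise and fall. Of the 10 members, 10 were found in the RefSeq table (GRCm38.p6). Plots were made in python 3.11.15 (matplotlib 3.10.9). Alternatives were other pseudocounts, filters, normalization, no trend, a replicate block, and leaving out each array or pool. In the main model the numbers of the hybridisations were not used to pair the pools.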

Additional observations from a re-analysis of the deposited data

Results flagged for a closer look

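In 8 cases a genotype difference changed direction between stages with no overlap of arrays at either stage. Glul 94852_at moved by 2.57 from P0 to P15 and by 1.41 from P0 to P30. Gfap 94143_at moved by 1.29 from P0 to P15, and Gfap 94144_g_at by -0.82 from P15 to P30. Fabp7 moved by -0.39 from P0 to P15 and by -1.30 from P0 to P30. Aqp4 102704_at moved by -0.46 and Ntsr2 by -0.65 from P15 to P30. The same change of direction without overlap occurred for 15.2% of all tested probe sets from P0 to P15, 9.5% from P15 to P30 and 6.91% from P0 to P30. These differences were not tested, except that the model with postnatal day covers the span from P0 to P30, where limma's adjusted p was 1 for Fabp7 and Glul.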

How the results depend on the processing

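Member probe sets higher from P0 to P15 (9) and from P0 to P30 (10) numbered 8 to 10 in each when 1 array or pool was left out. From P15 to P30, members higher numbered 2, 1 with no filter, 0 without the trend and 0 to 4 on leaving out arrays or pools (0 without the euploid P15 pool, 1 without the Ts1Cje P30 pool, its second array or the first euploid P0 array, 4 without either P0 pool), members lower 1 to 3 (3 without the euploid P15 pool), and members lower from P0 to P15 0 to 1. All calls from P15 to P30 numbered 353, 199 with no filter, 183 without the trend and 141 to 508 on leaving out 1, and those from P0 to P30 2904 and 1830 to 3293. With the replicate block, with pools as a random block, 1 member was lower from P0 to P15, 4 were higher and 3 lower from P15 to P30 (898 of all), and 6 of all were called for genotype. This fit takes single arrays, with an estimated correlation within pools of only 0.15. Arrays of the same pool then count almost as separate replicates, although they share their RNA. Its larger counts therefore add no support to the calls of the main model. Hybridisation differences of pools correlated by -0.12 to 0.35 (median 0.07), with 7 of 15 pairs over 0.1. Some pairs of pools thus shared part of these differences. The main model averages both arrays of a pool and does not use the numbers. Apoe's calls ended with no filter (adjusted p = 0.0646 and 0.0817) and without the trend (0.0663 and 0.0807), by limma.

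Probe sets past 1.5-fold without overlap numbered 552, 384 and 329 at P0, P15 and P30. With a pseudocount of 32 they were 174, 130 and 86, with no filter 1216, 834 and 956, with a mean signal of at least 50 291, 221 and 151, and on leaving out 1 array 552 to 1096, 384 to 832 and 329 to 620. At P15 members numbered 1 with a pseudocount of 32, a mean signal of at least 50 or quantile normalization, and 1 to 3 on leaving out 1 array, and at P30 1 to 2. All calls for genotype numbered 0 to 6 and for the change with day 0 to 5 on leaving out 1. The Gfap 94143_at genotype estimate was 0.058 with a pseudocount of 32. The model with postnatal day could not be fitted without a pool, as no residual degrees of freedom remain. Limma's estimates for the stages, genotype and the change with day that changed sign on leaving out 1 are given as their range. For genotype they were Aldoc -0.44 to 0.016, Apoe -0.11 to 0.087, Aqp4 102704_at -0.15 to 0.078, Fabp7 -0.64 to 0.0071, Gfap 94143_at -0.37 to 0.28, Gfap 94144_g_at -0.27 to 0.14, Glul 161826_r_at -0.069 to 0.24, Glul 94852_at -0.44 to 0.84, Ntsr2 -0.23 to 0.092. From P15 to P30 they were Apoe -0.18 to 0.032, Gfap 94143_at -0.61 to 0.37. For the change with day they were Aqp4 102703_s_at -0.20 to 0.36, Gfap 94144_g_at -0.48 to 0.071, Glul 161826_r_at -0.33 to 0.42. From P0 to P15 they were Glul 161826_r_at -0.28 to 0.18, Glul 94852_at -0.38 to 1.61. Of the differences within a stage, none past 1.5-fold without overlap changed sign on leaving out 1 array. Those that did were, at P0, S100b -0.24 to 0.0093, Aqp4 102704_at -0.15 to 0.22, Gfap 94144_g_at -0.45 to 0.11 and Ntsr2 -0.077 to 0.13, at P15, Apoe -0.056 to 0.25 and Glul 161826_r_at -0.59 to 0.34, and at P30, Aldoc -0.037 to 0.38, Apoe -0.00098 to 0.15, Gfap 94143_at -0.13 to 0.010 and Glul 161826_r_at -0.17 to 0.58.
The cause was not tested. Signal over background limits dim probe sets such as Gfap 94143_at.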

Other observations

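At P30, 4 of the 29 astrocyte genes were higher in Ts1Cje by 1.5-fold without overlap, where 2.28% of all probe sets were. They were Mt1, Mt2, Slc4a4 and Itih3, named after their values were seen, and Mt1 and Mt2 also stand in the glucocorticoid-responsive list. Of the 29, 14 were negative, with a median of 0.01. Of the 10 Bergmann glia genes 9 were positive at P30, with a median of 0.22 against -0.001 over all probe sets, and 0 passed 1.5-fold without overlap. The blood genes were lower in Ts1Cje at each stage, 3 of 3, with medians of -0.68, -1.40 and -0.66.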
